A study of Mus musculus with 4 samples.

Results

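The 9 genes described here are the STAT transcription factor genes *Stat3*, *Stat4*, *Stat5a*, *Stat5b* and *Stat6* and the Janus kinase genes *Jak1*, *Jak2*, *Jak3* and *Tyk2*, chosen by gene symbol from the 24346 genes of the tables. They were measured by RNA-seq in *in vitro* MDSCs, the myeloid cells that arise when mouse bone marrow is cultured with GM-CSF. Bone marrow of female C57BL/6J mice, 6 to 8 weeks old, received 40 ng/ml GM-CSF for 4 days in all 4 cultures, alone (Control, n = 2) or with 5 ng/ml G-CSF (G-CSF, n = 2). No sort of the sequenced cells is described, so each value is an average over the cells of a culture, and in such bulk samples fewer cells of a type and less RNA per cell cannot be told apart. Replicates were biological, but the labels do not say whether a Control and a G-CSF culture shared a mouse. The Control libraries held an estimated 13390000 and 14150000 mapped reads and the G-CSF libraries 12410000 and 15680000. Levels are given in FPKM, fragments per kilobase of transcript divided by the depth of the library, so that levels can be compared between genes.

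The extraction note in the labels names liver as the source of the RNA, whereas the methods and the other labels name cultured MDSCs. Of 4 hepatocyte markers, *Alb*, *Apoa1* and *Ttr* were listed at 0 in every library, and *Serpina1a* reached at most 0.169 FPKM. Of 8 myeloid markers, 7 were in the tables and all 7 were above 0, with *S100a8* the most abundant at a mean of 29406 FPKM and *Itgam*, which encodes CD11b, at 520 and 515 FPKM in the Control and at 395 and 416 FPKM in the G-CSF libraries. Of these 7, *Mpo*, an enzyme of early granules, was called higher and 4 were called lower, beside 12.7% and 11.5% of all genes tested.

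Janus kinases are tyrosine kinases bound to the inner tails of cytokine receptors that lack an enzyme of their own. When a cytokine draws receptor chains together, the kinases phosphorylate each other, the receptor and the STAT proteins that dock there, and the paired STATs move to the nucleus and switch on target genes, among them the SOCS genes, whose products dampen the same signal. GM-CSF acts through *Jak2* and the STAT5 proteins, G-CSF mainly through *Jak1*, *Jak2* and STAT3, IL-4 and IL-13 through STAT6, and IL-12 through *Tyk2*, *Jak2* and STAT4, while *Jak3* binds the common gamma chain of the IL-2 receptor family. These proteins are switched by phosphorylation, which transcript levels do not show.

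All 9 genes were above the filter on low values. The highest was *Stat6*, at 95.9 and 91.2 FPKM in the Control and at 78.0 and 79.4 FPKM in the G-CSF libraries, and 91.3% of the 11924 genes tested had a lower mean level over the 4 libraries. *Jak1* and *Jak2* came next in Control, with overlapping levels of 71.7 and 70.2 FPKM for *Jak1* and 71.8 and 65.1 FPKM for *Jak2*. *Stat3*, *Tyk2*, *Stat5b*, *Stat5a*, *Stat4* and *Jak3* followed in this order. In Control, *Jak1* and *Jak2* were the only neighbours in the order whose libraries overlapped. With G-CSF, no neighbours overlapped, and the order was the same except that *Jak3* stood above *Stat4*. The most and the least abundant of the 9 thus lay between a mean of 93.6 and 6.61 FPKM in the Control and between 78.7 and 8.55 FPKM in the G-CSF means.

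**Figure D1:**
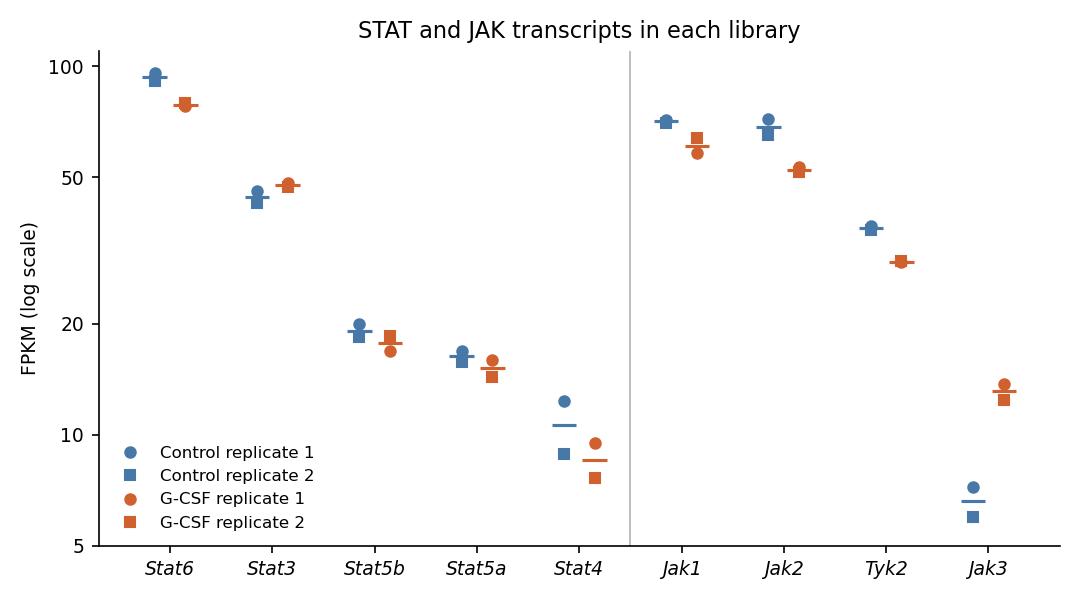
FPKM (vertical axis, log scale) of the 9 genes in each of the 4 libraries, STAT genes on the left and Janus kinase genes on the right, each in order of their Control mean. Circles and squares are replicates 1 and 2 and short lines are group means; *Jak3* is the gene whose G-CSF libraries (13.8 and 12.4 FPKM) lie well above Control (7.23 and 5.996 FPKM), while *Stat6*, *Jak1*, *Jak2* and *Tyk2* lie below it.

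The comparison of G-CSF with Control asks whether transcripts of the signalling genes differed when G-CSF was added to the culture. *Jak3* rose, *Jak2*, *Tyk2*, *Stat6* and *Jak1* fell, and *Stat3*, *Stat4*, *Stat5a* and *Stat5b* did not pass an adjusted p of 0.05 (limma on log2 FPKM, Benjamini-Hochberg over all genes tested). Thus 1 of 9 was called higher, where 12.7% of all genes tested were, and 4 of 9 were called lower, where 11.5% were (5 of 9 in either direction, beside 24.2%). The calls of *Jak1* and *Stat6* were lost when certain single libraries were left out, and fewer of all genes were called lower in those fits too. The median log2 fold change of the 9 genes was -0.22, beside 0.002 for all genes tested. None reached both an adjusted p under 0.05 and a fold change over 2, the thresholds of the study, which 0.512% of all genes passed as higher and 0.897% as lower (1.41% in all). The fold change of *Jak3* lay just under 2, and at an unadjusted p under 0.05 the 9 genes gave the same 1 higher and 4 lower, where 20.2% and 18.9% of all genes tested were higher and lower. The groups did not overlap, higher with G-CSF, for 2 of the 9 genes (33.7% of all genes) and, lower, for 4 (32.5%), together 6 of 9 beside 66.2% of all genes.

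**Figure D2:**
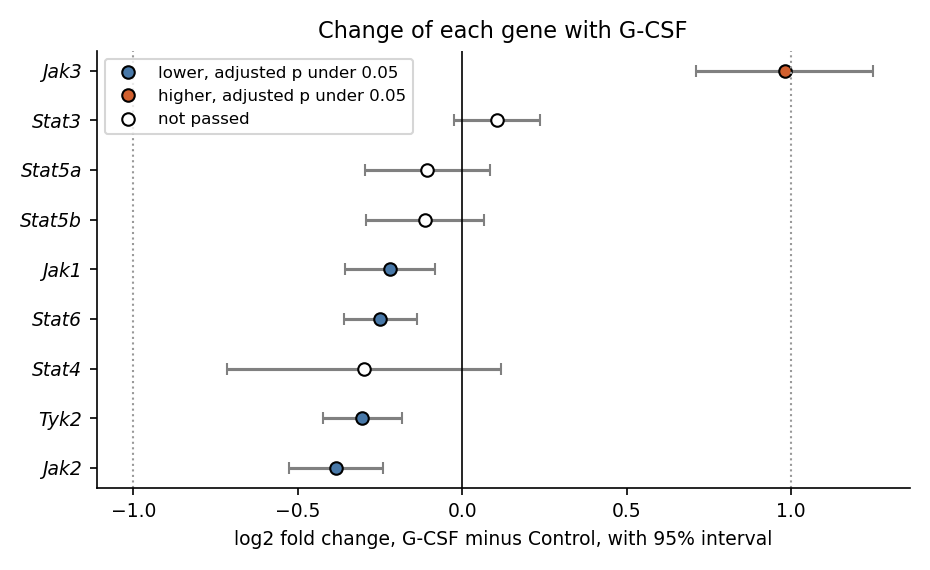
Log2 fold change (horizontal axis, G-CSF minus Control, on log2 of FPKM + 0.1) of each of the 9 genes with its 95% interval from limma; dotted lines mark a fold change of 2 in either direction. *Jak3* stands alone on the right at 0.98, the 4 filled blue points (*Jak2*, *Tyk2*, *Stat6* and *Jak1*) lie between -0.38 and -0.22, and the intervals of the 4 open points include 0.

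*Jak3*, the kinase that partners the common gamma chain and is best known from lymphocytes, was at 7.23 and 5.996 FPKM in the Control and at 13.8 and 12.4 FPKM in the G-CSF libraries. Both G-CSF libraries were above both Control libraries, by more than the spread within either group. The mean rose from 6.61 ± 0.873 to 13.1 ± 0.933 FPKM (SD, n = 2 each), a ratio of 1.98 and a log2 fold change of 0.98 (SE 0.112, limma adjusted p = 0.00446). The estimated reads behind these values were 368 and 322 in the Control and 649 and 742 in the G-CSF libraries. Leaving out any single library gave log2 fold changes of 0.85 to 1.11 and adjusted p of 0.00275 to 0.0144. The change was over 1 without Control replicate 1 (1.11) and without G-CSF replicate 2 (1.05), and under 1 otherwise.

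*Jak3* spans 71676296 to 71690575 of chromosome 8 (GRCm38, the same build as mm10), read on the plus strand. The last 1362 bases of this span also hold a second gene on the same strand, *Insl3*, which encodes a peptide hormone of the testis. *Insl3* was listed at 0.002 and 0 FPKM in the Control and at 1.98 and 1.28 FPKM in the G-CSF libraries, which is about 10 and 8 estimated reads, too few to be tested. Of the 75-base windows of its transcripts, 60.1% also occur in *Jak3* transcripts, so that reads of these genes cannot all be told apart. The windows shared with *Insl3* are 6.01% of those of *Jak3*.

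The 250 bases before the RefSeq start of *Jak3*, the gene that rose, and of *Jak2*, the gene with the largest fall, are shown because STAT proteins bind DNA at paired TTC and GAA letters and these genes moved in opposite directions. They are chr8:71676133-71676382 (plus strand) and chr19:29251553-29251802 (plus strand) of GRCm38.p6, read 5′ to 3′, and a match to either motif named next would stand in capitals.
Jak3: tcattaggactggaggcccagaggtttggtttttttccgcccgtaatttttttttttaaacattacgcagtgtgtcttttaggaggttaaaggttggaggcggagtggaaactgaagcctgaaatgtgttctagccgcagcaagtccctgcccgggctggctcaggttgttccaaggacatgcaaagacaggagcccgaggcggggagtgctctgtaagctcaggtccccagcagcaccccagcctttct
Jak2: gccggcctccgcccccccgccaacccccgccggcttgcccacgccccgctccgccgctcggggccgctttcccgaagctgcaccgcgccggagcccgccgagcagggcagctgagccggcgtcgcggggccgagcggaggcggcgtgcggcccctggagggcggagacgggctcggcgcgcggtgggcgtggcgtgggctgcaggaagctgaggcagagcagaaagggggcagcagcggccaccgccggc
No capitals appear. The motifs searched were TTCNNNGAA and, with a wider gap, TTCNNNNGAA, each of which reads the same on both strands. In RefSeq, the 9 genes have 12 such upstream windows, and none of these held either motif. Among 32851 windows of all genes, 7.02% held TTCNNNGAA and 5.85% held TTCNNNNGAA, so that a count of 0 in 12 windows is near the background. The upstream window was 52.4% G and C for *Jak3* and 80.8% for *Jak2*. RefSeq and GENCODE M21 place the start of *Jak3* differently. The end of its window thus lies inside the span given above, which starts at 71676296.

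*Jak2*, the kinase of the GM-CSF receptor, was at 71.8 and 65.1 FPKM in the Control and at 53.2 and 51.6 FPKM in the G-CSF libraries. The groups did not overlap, and the gap between them was wider than the spread within Control. The mean fell from 68.4 ± 4.76 to 52.4 ± 1.14 FPKM (SD, n = 2 per group), and the log2 fold change was -0.38 (SE 0.0597, limma adjusted p = 0.00846). *Tyk2*, which serves the receptors of type I interferons, IL-10 and IL-12, was at 36.9 and 35.9 FPKM in the Control and at 29.4 and 29.5 FPKM in the G-CSF libraries. Its groups were far apart compared with their spread, and its log2 fold change was -0.30 (SE 0.0499, limma adjusted p = 0.01). *Jak1*, which serves many receptors, including those of the interferons and of the IL-6 and IL-2 families, was at 71.7 and 70.2 FPKM in the Control and at 58.1 and 63.8 FPKM in the G-CSF libraries. The G-CSF libraries of *Jak1* differed more from each other than those of *Jak2* and *Tyk2*, but both were below Control. Its log2 fold change of -0.22 (SE 0.057, limma adjusted p = 0.0352) was the smallest of those called. The call of *Jak1* was lost without Control replicate 1 (adjusted p = 0.115), without Control replicate 2 (0.0753), without G-CSF replicate 1 (0.137) and with no filter on low values (0.0612). *Jak2* and *Tyk2* remained called with any library left out, with adjusted p between 0.00796 and 0.0253 for *Jak2* and between 0.0266 and 0.0421 for *Tyk2*.

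*Stat6*, the STAT of IL-4 and IL-13 signalling, was the only STAT gene of the 5 that was called. It fell from 93.6 ± 3.37 to 78.7 ± 1.03 FPKM (SD, n = 2 each), a change of -15.9% and a log2 fold change of -0.25 (SE 0.0467, limma adjusted p = 0.0142). Both G-CSF libraries were below both Control libraries. Without Control replicate 1 its adjusted p was 0.0642, and without G-CSF replicate 1 it was 0.05255, with log2 fold changes of -0.21 and -0.24. The end of *Stat6* on chromosome 10 overlaps the opposite-strand gene *Nab2* by 40 bases, and *Nab2*, a corepressor of EGR factors, had a log2 fold change of -0.27 (adjusted p = 0.0256). The kit keeps the strand of the RNA, but the sources used here do not say whether the counting used it.

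*Stat3*, the STAT through which the G-CSF receptor mainly acts, was at 45.8 and 42.6 FPKM in the Control and at 48.1 and 47.0 FPKM in the G-CSF libraries. Its G-CSF libraries were both above Control, but the gap was narrower than the difference between the Control libraries. The log2 fold change of 0.11 (SE 0.0545, limma adjusted p = 0.202) corresponds to a ratio of 1.08 with a 95% interval of 0.983 to 1.18. *Stat5a* and *Stat5b*, the near-identical STATs of GM-CSF signalling, had overlapping groups. *Stat5a* was at 16.9 and 15.8 FPKM in the Control and at 16.0 and 14.4 FPKM in the G-CSF libraries, a log2 fold change of -0.11 (adjusted p = 0.364) and a 95% interval of the ratio of 0.814 to 1.06. *Stat5b* was at 19.9 and 18.4 FPKM in the Control and at 16.9 and 18.5 FPKM in the G-CSF libraries, a log2 fold change of -0.11 (adjusted p = 0.303) and an interval of 0.816 to 1.05. With 1 library left out, the log2 fold change was 0.05 to 0.16 for *Stat3*, -0.18 to -0.03 for *Stat5a* and -0.18 to -0.05 for *Stat5b*. The intervals do not show equal levels. The STAT5 pair shares 387 windows of 75 bases, which are 5.12% of those of *Stat5a* and 6.99% of those of *Stat5b*, and the ratio of *Stat5a* to *Stat5b* was 0.847 and 0.856 in the Control and 0.946 and 0.776 in the G-CSF libraries.

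The genes *Stat5b*, *Stat5a* and *Stat3* sit side by side on chromosome 11 of GRCm38 within 158810 bases, from 100780731 to 100939540. *Stat5b* (100780731 to 100850724) and *Stat3* (100885098 to 100939540) are on the minus strand and *Stat5a* (100859351 to 100885169) is on the plus strand between them. The far ends of *Stat5a* and *Stat3* overlap by 72 bases. None of the genes of this locus was called. Beyond *Stat5b*, *Ghdc* had a log2 fold change of -0.06 (adjusted p = 0.75), and on the other side *Cavin1*, which encodes a coat protein of caveolae, lies 17192 bases from *Stat3* and was not analysed here. The other members lie apart from each other, *Stat4* on chromosome 1 (51987148 to 52107189), *Stat6* on chromosome 10 (127642986 to 127660957), *Jak1* on chromosome 4 (101152367 to 101265282), *Jak2* on chromosome 19 (29251828 to 29313080) and *Tyk2* on chromosome 9 (21104068 to 21131243).

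*Stat4*, the STAT of IL-12 signalling, was at 12.4 and 8.87 FPKM in the Control and at 9.49 and 7.61 FPKM in the G-CSF libraries. The groups overlapped, and the difference between the Control libraries was wider than that between the group means of 10.6 ± 2.47 and 8.55 ± 1.33 FPKM (SD, n = 2 each). The log2 fold change was -0.30 (SE 0.174, limma adjusted p = 0.251), as large as that of *Tyk2* but with an interval of the ratio from 0.609 to 1.09. Single libraries set this value. It was -0.54 without Control replicate 2 (adjusted p = 0.0441), -0.46 without G-CSF replicate 1 (0.149), -0.14 without G-CSF replicate 2 (0.638) and -0.06 without Control replicate 1 (0.814). Of the 4 dendritic cell markers, *Zbtb46* (4.78 and 2.94 FPKM, then 3.37 and 1.99 FPKM) and *Flt3* (0.973 and 0.552 FPKM, then 0.582 and 0.315 FPKM) had the order of libraries of *Stat4*. The more abundant markers *H2-Ab1* (474 and 396 FPKM, then 229 and 182 FPKM) and *Itgax* (78.6 and 69.7 FPKM, then 61.5 and 47.2 FPKM) did not, since both G-CSF libraries were below both Control libraries. The part of such cells in the values of *Stat4* was not tested. *Stat4* also shares 19.5% of its windows with the annotated gene *Gm28177*, so its level is uncertain.

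Because *Jak3* rose where the other kinases fell, its share of the summed FPKM of the 4 Janus kinase genes went from 3.85% and 3.38% in Control to 8.91% and 7.91% with G-CSF. The sum itself was 188 and 177 FPKM in the Control and 154 and 157 FPKM in the G-CSF libraries. *Jak2* had 38.3% and 36.7% of the sum in the Control libraries, against 34.4% and 32.8% in the G-CSF libraries, and the share of *Jak1* overlapped between the groups (38.2% and 39.6%, 37.6% and 40.5%). Among the 5 STAT genes, *Stat6* had 50.2% and 51.6% of the summed FPKM in the Control libraries, against 46.3% and 47.6% in the G-CSF libraries. *Stat3* had 23.99% and 24.1% in the Control and 28.6% and 28.1% in the G-CSF libraries. The shares of one sum are tied to each other, and with 2 libraries against 2 they were not tested; the shares of *Jak3* and *Stat3* were higher, and those of *Stat6*, *Jak2* and *Tyk2* lower, in both G-CSF libraries than in both Control libraries.

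**Figure D3:**
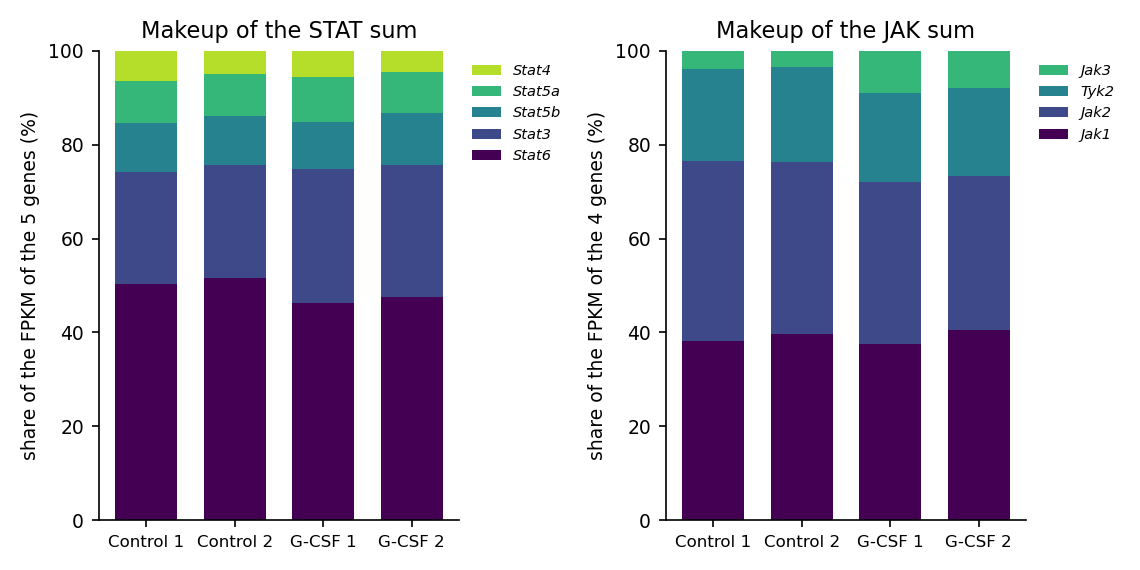
Share (%) that each gene has of the summed FPKM of the 5 STAT genes (left) and of the 4 Janus kinase genes (right), 1 bar per library. The band of *Jak3* at the top of the right panel widens from 3.85% and 3.38% in the Control libraries to 8.91% and 7.91% in the G-CSF libraries.

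The rest of the pathway was followed with 5 lists, of receptors, negative regulators and textbook targets of STAT3, STAT5 and STAT6, which hold 106 genes. Of 91 genes tested, 7 were called higher and 32 lower, with a median log2 fold change of -0.17, beside 12.7% and 11.5% of all genes tested and a median of 0.002. With no filter on low values, 4 were called higher and 21 lower, where 1101 and 960 of all 15954 genes then tested were. Both counts were also smaller with any 1 library left out, as were those of all genes. Some genes stand in more than 1 list, and the lists do not show which factor acted on a gene.

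Of 39 receptor genes, 29 were tested, 10 were lower and none was higher (limma; 13 and 2 at an unadjusted p under 0.05, beside 18.9% and 20.2% of all genes), with a median log2 fold change of -0.18. The receptor genes *Osmr* and *Il22ra1* were listed at 0 in every library. *Csf3r*, the G-CSF receptor, was at 50.2 and 48.3 FPKM in the Control and at 34.6 and 40.3 FPKM in the G-CSF libraries, a log2 fold change of -0.40 (adjusted p = 0.0158). *Csf2ra*, the GM-CSF-binding chain, was at 137 and 136 FPKM in the Control and at 96.9 and 103 FPKM in the G-CSF libraries, a log2 fold change of -0.45 (adjusted p = 0.0036). The groups of both receptors were well separated. Of the signalling chains, which share 518 windows of 75 bases, *Csf2rb2* fell (-0.18, adjusted p = 0.0286), while *Csf2rb*, at 502 and 525 FPKM in the Control and at 456 and 470 FPKM in the G-CSF libraries, did not pass (-0.15, adjusted p = 0.0647). *Il2rg*, the common gamma chain to which *Jak3* binds, was at 146 and 148 FPKM in the Control and at 128 and 137 FPKM in the G-CSF libraries (-0.14, adjusted p = 0.0732; 26.0% of its windows shared with *Gm20489*). In Control its mean was 147 FPKM, beside 6.61 FPKM for *Jak3*. Of the receptor chains that pair with it, grouped after their values were seen, *Il2ra* (-0.85, adjusted p = 0.0339) and *Il21r* (-0.25, adjusted p = 0.0388) fell, and *Il4ra* (0.17, adjusted p = 0.0563), *Il7r* (-0.18, adjusted p = 0.14) and *Il15ra* (0.35, adjusted p = 0.0802) did not pass. *Il2rb*, which IL-2 and IL-15 signalling needs, stood at no more than 0.39 FPKM and *Il9r*, the receptor of IL-9, at no more than 0.182 FPKM, and neither was tested. The receptors with the smallest p besides *Csf2ra* were *Crlf2*, the receptor of TSLP (-0.63, adjusted p = 0.00553), and *Ifnlr1*, a receptor of type III interferons (-0.99, adjusted p = 0.00598).

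Of 23 negative regulators, all were tested, 7 were lower and none was higher (limma; 9 and 2 at an unadjusted p under 0.05, beside 18.9% and 20.2% of all genes), with a median of -0.13. *Socs3*, the feedback inhibitor of STAT3 signalling, was at 25.7 and 26.2 FPKM in the Control and at 23.3 and 28.7 FPKM in the G-CSF libraries. Both Control libraries lay between the G-CSF libraries, and the log2 fold change was -0.004 (SE 0.0976, limma adjusted p = 0.983). *Socs3* was listed here and among the STAT5 targets, so the counts of STAT3 targets leave it out. *Cish*, a feedback gene of STAT5, was at 132 and 131 FPKM in the Control and at 102 and 108 FPKM in the G-CSF libraries, a log2 fold change of -0.32 (adjusted p = 0.00696). *Socs1*, an inhibitor of Janus kinases, fell by 0.47 on the log2 scale (adjusted p = 0.00517), and *Ptprc*, which encodes the phosphatase CD45, by 0.37 (adjusted p = 0.00556). The phosphatase genes *Ptpn6* (-0.13, adjusted p = 0.0955) and *Ptpn1* (-0.15, adjusted p = 0.156), the most abundant of this list, did not pass.

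Of 19 STAT3 targets tested, 5 were higher and 7 lower, beside 12.7% and 11.5% of all genes, with a median of -0.14. *Myc*, a driver of growth, rose from 54.7 and 52.3 to 79.1 and 70.1 FPKM (log2 fold change 0.48, adjusted p = 0.00672), while *Mmp9*, a granule protease, fell from 192 and 192 to 77.2 and 107 FPKM (-1.08, adjusted p = 0.00515), and *Il1rn*, an inhibitor of interleukin 1, fell by 0.44 on the log2 scale (adjusted p = 0.00482). Among the most abundant of the list, *S100a9* (-0.53, adjusted p = 0.0261) and *Cybb* (-0.17, adjusted p = 0.0341) fell, and *S100a8* did not pass (-0.36, adjusted p = 0.0803). By flow cytometry, the paper reports a smaller share of polymorphonuclear MDSCs and a larger share of monocytic MDSCs in cultures with G-CSF. The part of this shift in the values of these genes and of *Csf3r* was not tested. Of 14 STAT5 targets tested, none was higher and 4 were lower (limma; 1 and 6 at an unadjusted p under 0.05, beside 20.2% and 18.9% of all genes), with a median of -0.21. The 4 were *Cish*, *Socs2* (-0.41, adjusted p = 0.0142), *Osm* (-0.39, adjusted p = 0.00913) and, named after its values were seen, *Il2ra*. *Pim1*, a survival kinase, was at 156 and 151 FPKM in the Control and at 167 and 171 FPKM in the G-CSF libraries (0.14, adjusted p = 0.0596), and *Id1* overlapped between the groups (0.03, adjusted p = 0.825).

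Of 14 STAT6 targets tested, 7 were lower and 2 higher, beside 11.5% and 12.7% of all genes, with a median of -0.51. The 2 higher are near the background share. *Mgl2*, a lectin of dendritic cells and macrophages, fell from a mean of 189 ± 15.7 FPKM to 114 ± 5.79 FPKM (SD, n = 2 each; log2 fold change -0.73, adjusted p = 0.00294). *Irf4* fell by 0.53 (adjusted p = 0.00696), *Cd209a* by 1.55 (adjusted p = 0.0158) and *Ccl17* by 0.94 (adjusted p = 0.0232) on the log2 scale. *Ccl22* (-0.59, adjusted p = 0.0642) and *Chil3* (-0.27, adjusted p = 0.203) did not pass. Among those called higher was *Pparg*, a nuclear receptor of lipid metabolism, named after its values were seen (0.23, adjusted p = 0.0295). *Irf4*, *Ccl17*, *Mgl2* and *Cd209a* are also known as genes of dendritic cells. The 4 dendritic cell markers, none of them at 0, summed to 559 and 469 FPKM in the Control and to 294 and 232 FPKM in the G-CSF libraries, with *H2-Ab1* the most abundant, and 2 of the 4 were called lower. Their part in the fall of *Stat6* and of its targets was not tested. By flow cytometry, the paper reports unchanged percentages of dendritic cells and of macrophages in cultures with G-CSF.

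**Figure D4:**
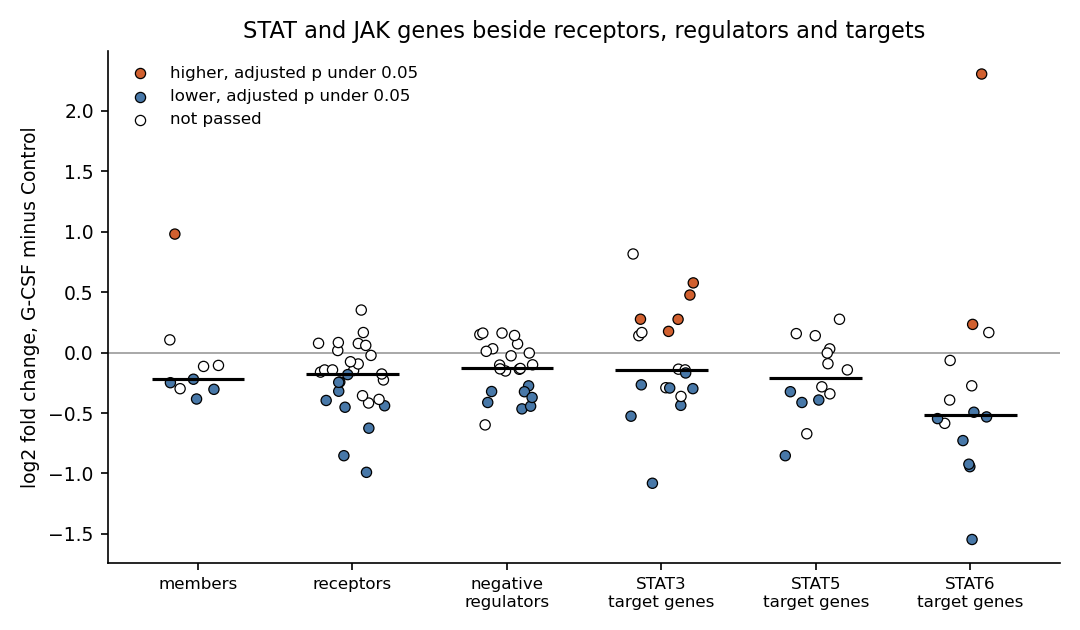
Log2 fold change (vertical axis, G-CSF minus Control, on log2 of FPKM + 0.1) of each tested gene among the 9 STAT and Janus kinase genes and in the 5 lists, with black lines for the medians. Orange and blue points passed an adjusted p of 0.05; the receptor, negative regulator and STAT5 target columns hold blue and open points only, whereas STAT3 targets hold 5 orange and 7 blue points.

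Markers of other cell types were measured beside these genes, and their counts of calls stand beside 11.5% of all genes tested called lower. The 4 macrophage markers (3 of 4 called lower, none at 0, *Adgre1* the most abundant) summed to 80.0 and 84.3 FPKM in the Control and to 59.8 and 65.3 FPKM in the G-CSF libraries. The 4 mast cell and basophil markers (3 of 4 lower, none at 0, *Mcpt8* the most abundant) summed to 79.1 and 79.2 FPKM in the Control and to 51.1 and 55.5 FPKM in the G-CSF libraries. Their part in the falls of *Jak1*, *Jak2*, *Tyk2* and *Stat6* was not tested. Lymphocytes are rich in *Jak3*. The 6 T cell markers summed to 4.91 and 4.73 FPKM in Control and, lower where *Jak3* was higher, to 3.53 and 2.94 FPKM with G-CSF, with *Cd3d* the most abundant, none at 0, and 2 of the 4 tested markers called lower. The 4 B cell markers summed to 5.36, 4.73, 5.03 and 3.69 FPKM in the same order of libraries, with *Cd79b* the most abundant, none at 0 and 1 of 3 tested called lower. The 4 NK cell markers summed to 10.6, 7.03, 15.3 and 10.4 FPKM, nearly all of it *Nkg7*, and *Ncr1*, the defining receptor, was at 0 in every library. The part of these cells in the rise of *Jak3* was not tested. The 3 erythroid markers in the tables summed to at most 1.57 FPKM, most of it *Hba-a1*.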

How the data were processed

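RNA-seq libraries were made with a stranded mRNA kit and read over 75 bases from a single end. The submitters' processing notes name TopHat2 2.0.13, Bowtie2 2.2.3, SAMtools 0.1.19 and Cufflinks 2.2.1 and the build mm10; the annotation is not given in the sources used here. The authors deposited 1 table per library, whose values were read as FPKM from their form and from the tools named. Reads were estimated from the steps of low values (65.0% to 70.3% within 0.05 reads of a whole number at the best depth, 10.0% by chance) with GENCODE M21 transcript lengths less 210 bases; 23310 gene names matched directly and 649 by synonym.

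Tests used limma 3.58.1 (R 4.3.3, trend, two-sided) on log2(FPKM + 0.1), on the 11924 genes that reached 10 estimated reads in 2 or more libraries and a sum of 15. Left out were 1729 genes that were annotated as small RNAs or had no usable transcript length over 300 bases. The pseudocount draws changes of low genes toward 0. Count tests were not used, since the tables hold no counts. The members, lists and settings were chosen with earlier results of these data known. From each list, the 3 most abundant genes, the 3 with the smallest p and 6 fixed genes are named. The alternatives were other pseudocounts, filters and scalings, a replicate block and each library left out. Scripts were tested on simulated data. Sequences are from RefSeq. Markers *Ly6g* and *Hbb-bt* and the list gene *Spi2a* were not analysed here, and the values of 1 other list gene are not reported here. Intervals cover the spread between these libraries only.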

Additional observations from a re-analysis of the deposited data

How the results depend on the processing

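All 9 genes kept their direction under pseudocounts of 1 and 0.01 FPKM, no filter, at least 1 FPKM in every library, median-ratio and upper-quartile scaling, the replicate block and the removal of any 1 library. Apart from the block and the left-out libraries, the call of *Jak1* with no filter (adjusted p = 0.0612) was the only call that changed. With a library left out, 1 group keeps a single library, assumed to vary like the other group. In these fits 1 of the 9 genes was called higher and 2 to 4 lower, and 0 to 1 passed a fold change of 2 as higher (*Jak3*) and 0 as lower.

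Replicate numbers do not mark a shared mouse or day in the labels. Samples of the same number deviated together (r = 0.234 across genes). With the replicate block, 1 of the 9 genes was higher and 5 lower, *Stat4* being added (adjusted p = 0.0272), and of all genes 2037 were higher and 1955 lower, against 1511 and 1371 without it.

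Of all genes, 61 were called higher and 107 lower with a fold change over 2. With a pseudocount of 1 FPKM these were 24 and 32, and with at least 1 FPKM in every library 24 and 51; with a library left out, 40 to 73 and 77 to 124. At an adjusted p under 0.05, leaving out a library gave 763 to 930 higher and 730 to 1020 lower. At the same threshold with no filter, 1101 of all 15954 genes tested were higher and 960 lower. Of the pathway list genes, 7 were higher and 32 lower. With no filter these were 4 and 21, and with a library left out 3 to 6 and 21 to 31. With 2 libraries a group, changes as small as those of *Stat3*, *Stat5a* and *Stat5b* could not be told from no change.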
